A study of Mus musculus with 8 samples.

Results

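Non-Hox developmental homeobox genes are described here in mouse hematopoietic stem cells (HSCs), the rare bone marrow cells from which blood is formed. The members are 58 genes listed by symbol, in the Pax, Lhx, Nkx, sine oculis (Six2, Six3 and Six6), Dlx, Irx, Emx, Otx, Msx, En, Gbx, Pitx, Cdx, Gsx, Meox and Tlx families. Each was followed over its RefSeq gene body and 5 kb on each side, through the CpG dinucleotides that had at least 10 reads in at least 3 mice of each group, which gave 9692 CpGs of 1278034 on the autosomes. Of these, 8755 had at least 10 reads in all 8 mice. With at least 10 such CpGs required, 56 of the 58 members were measured, beside 14888 of 20661 autosomal protein-coding genes. Meox2 and Pax4 had too few covered CpGs. Dlx1 and Dlx2 lie side by side and shared 5 of the CpGs covered in all mice, so they are not independent of each other.

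DNA methylation had been measured by enhanced reduced representation bisulfite sequencing (ERRBS), in which restriction fragments rich in CpGs are sequenced after bisulfite has converted unmethylated cytosines. Knockout mice (mice 25, 28, 45 and 46) were labelled Atg12 fl/fl with Mx1-cre, a recombinase under an interferon-inducible promoter that also acts outside the blood; Atg12 is needed to build autophagosomes. Control mice (mice 1, 34, 36 and 37) carry the genotype label WT, while the design text gives them floxed Atg12 alleles without Cre. All were of the C57BL/6 strain, and the design text states that both groups received poly(I:C), an inducer of interferon, at 4 weeks of age and that cells were taken from single mice 2 to 3 months later. Cells were sorted as negative for Lin, CD48 and Flk2 and positive for CD150, Sca-1 and c-Kit, and were not cultured.

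The tables listed 2038266 to 3366162 cytosines per mouse. Median coverage was 212 to 293 reads at CpGs covered in all mice and 245 to 393 reads at those of the members. CpGs at or over 90% in all mice were covered 0.260 times as deeply as those at or under 10% in control 34 and 0.340 times in knockout 25, against up to 0.736 times in the others. The knockouts listed 8.52 ± 0.472 Y-chromosome cytosines per 10000 and the controls 1.45 ± 0.286 (mean ± SD, n = 4), without overlap, so that genotype and Y-chromosome content are confounded in every comparison below and cannot be told apart. Of 11 stem and progenitor marker genes, 7 were measured within 1 kb of a start and all were under 1%. Low levels are common there, since the median over all 12974 measured starts was 0.295% and 31.7% were over 1%. The B cell genes Igll1 and Vpreb1 were at 94.2% and 97.3%, the erythroid gene Klf1 was at 0.517%, and none of the listed T cell or neutrophil markers was measured there. Igll1, over 3 CpGs, averaged 90.1% ± 8.75 among knockout and 98.4% ± 1.63 among control mice, without overlap, and its part in the results below was not tested.

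Homeobox genes encode transcription factors that bind DNA through a shared helical domain and set the identity of body regions and organs in the embryo. The name is used here for all listed members, whether or not each holds a complete homeobox. Most of those studied here are best known from brain, eye, limb, kidney, gut or muscle rather than from adult blood. Such genes typically lie in CpG-rich domains that Polycomb complexes occupy in cells where the gene is off, and that are kept largely free of DNA methylation.

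The homeobox genes were low in methylation, and the low state reached well beyond the CpG-dense start. The level of a gene is the unweighted mean over its CpGs covered in all 8 mice. The median of the 56 genes was 4.06% (quartiles 2.65 to 6.39%), against 17.2% over all measured genes. Of the 56, 34 were under 5% (60.7%, against 21.4% of all genes) and 53 under 20%, and none passed 50%. Gene length differed as well, with a median of 6.87 kb for the members against 24.4 kb, and its part in these levels was not tested.

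**Figure D1:**
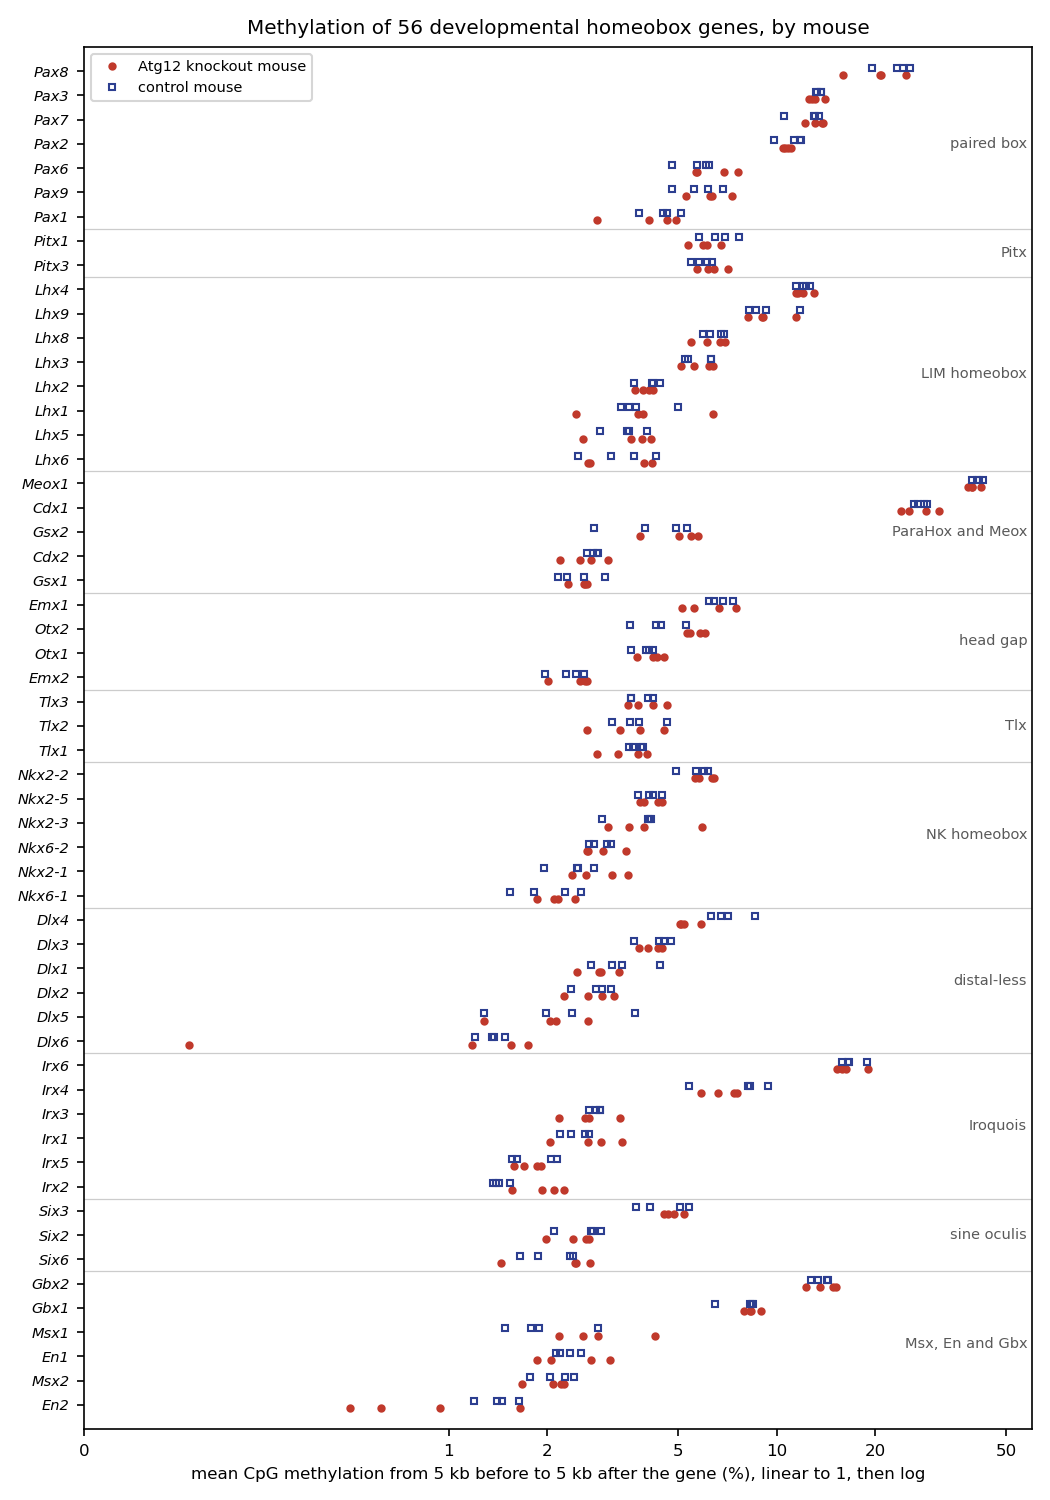
Mean CpG methylation (x axis, %, linear to 1 and logarithmic above) of each of the 56 measured homeobox genes (y axis, grouped by family) in each Atg12 knockout mouse (filled circles) and control mouse (open squares). Genes span from 1.23% (En2) to 40.4% (Meox1), and the groups overlap in all genes but Dlx4, Irx2 and Otx2.

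The 10 lowest genes were En2, Dlx6, Irx2, Irx5, Msx2, Nkx6-1, Six6, Dlx5, En1 and Emx2, all at or under 2.38%. En2, which patterns midbrain and cerebellum, was lowest at 1.23%. Its level was 0.816, 0.977, 0.729 and 1.65% in knockouts 25, 28, 45 and 46, and 1.40, 1.19, 1.45 and 1.64% in controls 1, 34, 36 and 37. The groups overlapped through knockout 46. Dlx6, a regulator of jaw and limb development, was at 1.55, 1.74, 0.289 and 1.18% in the knockouts and 1.48, 1.21, 1.38 and 1.36% in the controls. Knockout 45 alone was far below the rest, and its neighbour in the order, Irx2, overlapped it in range.

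The 10 highest genes were Meox1, Cdx1, Pax8, Irx6, Gbx2, Pax3, Pax7, Lhx4, Pax2 and Lhx9, from 40.4% down to 9.45%. Meox1, which acts in the somites, was at 38.2, 39.3, 42.0 and 39.3% in the knockouts and 40.9, 39.5, 42.5 and 41.3% in the controls, so that the groups overlapped. Cdx1, a ParaHox gene of the intestinal epithelium, followed at 25.4, 24.0, 28.5 and 31.2% in the knockouts and 28.8, 26.3, 26.9 and 28.1% in the controls. Pax8, a regulator of thyroid and kidney, was at 20.8, 15.9, 24.8 and 20.7% in the knockouts and 24.3, 19.6, 23.3 and 25.5% in the controls. In this top group no gene separated the genotypes. Over all 56 genes, the widest spread within a genotype was that of Pax8 (SD 3.62 percentage points), followed by Cdx1 (3.25), Irx4 (1.71), Irx6 (1.65) and Lhx1 (1.64).

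Family medians ran from 2.42% for the Msx, En and Gbx genes and 2.52% for the sine oculis genes to 11.0% for the Pax genes. The NK homeobox genes (Nkx2 and Nkx6, regulators of endoderm, heart and spinal cord) had a median of 3.44%, the distal-less genes 2.97%, the Iroquois genes 2.68% and the Lhx genes 4.93%. A family was not uniform. Among the Iroquois genes, Irx2 and Irx5 were under 2% while Irx6 reached 16.8%, and among the ParaHox and Meox genes Cdx2 was at 2.69% while Cdx1 was at 27.4%. Among the Msx, En and Gbx genes, Gbx2 at 13.8% and Gbx1 at 8.15% stood above En2, Msx2, En1 and Msx1, all at or under 2.48%.

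Divided by CpG density, the members' medians differed from those of all genes in opposite directions at dense and sparse CpGs. A CpG was called dense when at least 20 CpGs were listed within the 500 bp around it, and sparse otherwise. At dense CpGs the median gene was at 2.07% among the homeobox genes and at 0.249% among all genes. All 56 lay above that median of all genes, from 0.287% (Nkx2-3, a regulator of spleen and gut) to 15.7% (Cdx1), and 50 of 56 exceeded 1%, against 27.7% of all genes. At sparse CpGs they were far less methylated, with a median of 10.1% against 72.05%, and 54 of the 55 genes with enough sparse CpGs lay below the median of all genes. The exception was Cdx1, at 76.0%. Each mouse showed the same. Over the 8 mice, the members' median at dense CpGs was 1.85 to 2.23%, against 0.136 to 0.324% for all genes, and at sparse CpGs 8.11 to 11.9% against 69.7 to 73.1%.

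**Figure D2:**
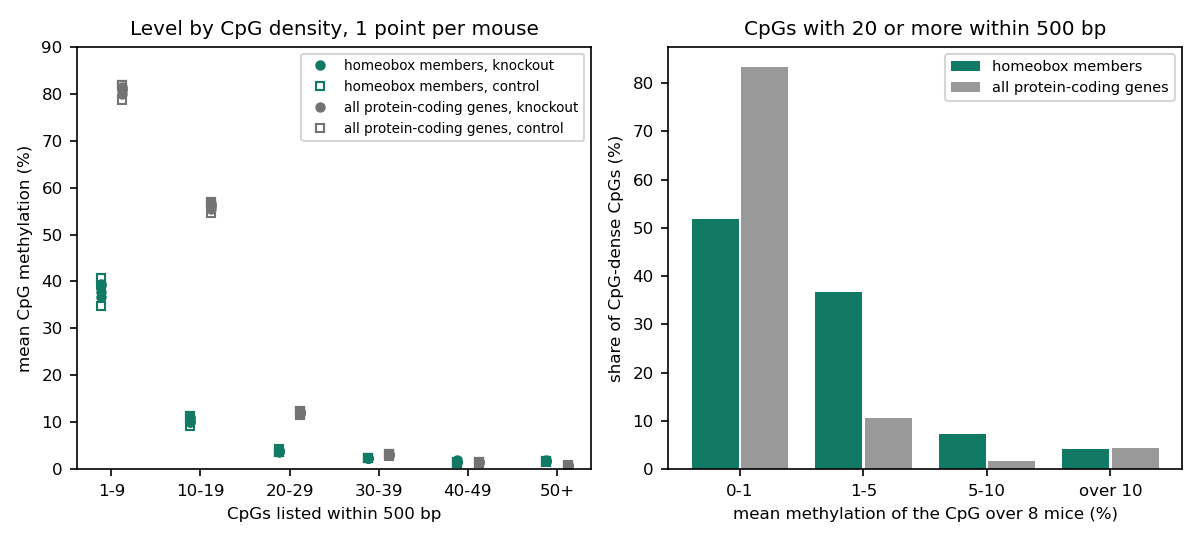
Left, mean CpG methylation (y axis, %) by the number of CpGs listed within 500 bp (x axis) for the homeobox genes (green) and all protein-coding genes (grey), 1 point per knockout (filled circle) or control (open square) mouse. Right, share of CpG-dense CpGs (y axis, %) in each range of mean methylation (x axis). The members lie below the other genes where CpGs are sparse, and hold 36.6% of dense CpGs at 1 to 5% against 10.7%.

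The higher median at dense CpGs was a small shift shared by many sites. Of the 6835 dense CpGs of the members, 51.9% were at or under 1%, 36.6% between 1 and 5%, and 7.20% between 5 and 10%. Over the 639840 dense CpGs of all genes these shares were 83.3%, 10.7% and 1.75%. Levels over 50% went the other way, with 0.263% of the members' dense CpGs against 2.37%. So did the mean over dense CpGs, which was 2.40% in the members and 3.00% in all genes. By class, the mean was lower in the members at 20 to 29 CpGs within 500 bp (3.85 against 12.1%) and at 30 to 39 (2.39 against 3.08%), and higher at 40 to 49 (1.54 against 1.48%) and at 50 or more (1.73 against 0.746%). The shift of the median was present in the most crowded class too, where CpGs with 50 or more listed within 500 bp had a median of 0.605% in the members and 0.0780% in all genes. In the least crowded class, 1 to 9 CpGs in 500 bp, 36.8% of the members' CpGs were over 50% methylated, against 85.6% of those of all genes. The mean in that class was 38.6 against 81.0%, and at 10 to 19 CpGs it was 10.6 against 56.2%. The sparse CpGs were not alike in density. The class of 10 to 19 held 1447 of the members' 1920, against 119398 of 272729 over all genes.

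Other developmental transcription factor genes gave near values, and homeobox genes with known roles in blood did not. A list of 64 further developmental homeobox genes (59 measured) had medians of 3.68% per gene, 1.84% at dense and 7.98% at sparse CpGs. For 71 developmental transcription factors without a homeobox (68 measured), these were 3.81, 2.07 and 10.02%. For 27 homeobox genes known from blood cells, they were 13.9, 0.229 and 68.2%, close to all genes on the last pair of values. Gene length differed too, with a median of 102.5 kb in the blood list and 6.87 kb in the members. It was 5.68 kb in the further homeobox genes and 4.87 kb in the factors without a homeobox. The part of length in these values was not tested. These lists are descriptions, and no test of the difference between lists was made.

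Single genes departed from the general pattern at one class of CpG or the other. Pitx3, needed for the lens and for dopamine neurons, was at 0.510% over its dense CpGs and at 58.8% over 12 sparse ones. Its sparse level was 53.6 to 64.6% in the knockouts and 53.0 to 62.1% in the controls, which overlapped. Gbx1, expressed in the developing spinal cord, was at 1.57% over dense and 56.2% over sparse CpGs. Lhx4, a pituitary regulator, was at 1.45% and 47.8%, and Meox1 at 1.97% and 54.3%. The window of Pitx3 also covers parts of Elovl3 and Gbf1, and that of Gbx1 part of Agap3, so that their CpGs need not belong to the homeobox gene alone.

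Methylation at CpG-dense sites was common in Cdx1 and Gbx2. In Cdx1, 27 dense CpGs (36%) were at or over 20%, and in Gbx2, which positions the midbrain and hindbrain boundary, 21 were (12.6%). Gsx2 followed with 4.08% (2 of 49 dense CpGs), Pax9 with 3.77% (2 of 53) and Pitx1 with 2.80% (6 of 214). Dlx4 had 2.56% (2 of 78), Otx2 2.33% (1 of 43) and Dlx3 2.25% (2 of 89). In all, 25 of the 56 members held any such CpG (44.6%, against 18.5% of all genes). That count also depends on how many dense CpGs a gene holds. Per CpG the order was the reverse. Of the members' 6835 dense CpGs 1.35% were at or over 20%, against 3.31% of the 639840 of all genes. In Cdx1 the site was a 1 kb window inside the gene, at 61035001 to 61036000 on chromosome 18 (mm10), with 27 covered CpGs and a median density of 53. It was at 29.99, 22.9, 32.7 and 38.5% in the knockouts and 32.7, 30.5, 30.5 and 31.6% in the controls, with the knockouts spread on both sides of the controls.

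Gbx2 changed level abruptly along its short body. The window at chromosome 1, 89930001 to 89931000, just inside the start, held 86 CpGs at 0.190%. The window at 89928001 to 89929000, 2.68 kb downstream of the start and still inside the gene, was at 54.5, 33.3, 56.3 and 58.2% in the knockouts and 53.1, 27.9, 48.1 and 55.1% in the controls, over 11 CpGs. Knockout 28 and control 34 were low together, and the groups overlapped. The window after it, at 89927001, was again at 0.537%. The window at 89931001, which holds the start at 89931176 and bases on both sides of it, was at 6.76%, and the one at 89932001, which lies over the neighbouring LOC102637806, at 89.5%.

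Runs of low methylation were longer than in most genes. A run was a stretch of consecutive CpGs at or under 10% with no gap over 1 kb, and the longest of each gene had a median of 1.65 kb in the members and 0.666 kb in all genes. The longest were those of Msx1 (3563 bp, 110 CpGs), Nkx2-3 (3461 bp), Lhx6 (3430 bp), Pax2 (3213 bp), Pax6 (3192 bp), Nkx6-1 (2831 bp), Irx3 (2733 bp) and Pax9 (2532 bp). That of Msx1, which acts in tooth and palate, ran over its start, from 37823377 to 37826939 on chromosome 5. The shortest were in Cdx1 (137 bp), Meox1 (262 bp), Lhx3 (425 bp), Irx6 (559 bp) and Pax8 (677 bp), of which Cdx1, Meox1, Irx6 and Pax8 are also the genes of highest level. No member's run exceeded 4 kb, which 19 genes of all reached, and the lengths depend on coverage, since a run ends at a gap over 1 kb as well as at a CpG over 10%, and uncovered CpGs within shorter gaps are not measured.

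Around the gene starts the homeobox genes were low on both sides, while other genes were higher away from the start. RefSeq starts were at hand for 41 members, and 48 of their starts had enough CpGs within 1 kb. Of the 10 highest genes by level, Meox1, Cdx1, Irx6 and Pax3 had no start at hand. Of the 10 lowest, En2, Dlx6, Irx5 and Dlx5 had none. These start windows had a median of 1.64% against 0.295% over 12974 starts, 44 of 48 were under 5%, and none was over 50%, against 6.54% of all starts. Levels over 1% were seen in 77.1% of the members' starts and 31.7% of all. In the 500 bp before the start the median was 1.04% over 25 members and 0.190% over 7283 genes. From 3 to 5 kb after it, the medians were 3.55% over 25 members and 88.8% over 1989 genes. Among these 48, the highest starts were those of Pax8 (17.3%), Nkx2-5 (9.84%), a heart regulator, and Lhx3 (8.18%), and the lowest that of Pitx3 (0.368%).

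**Figure D3:**
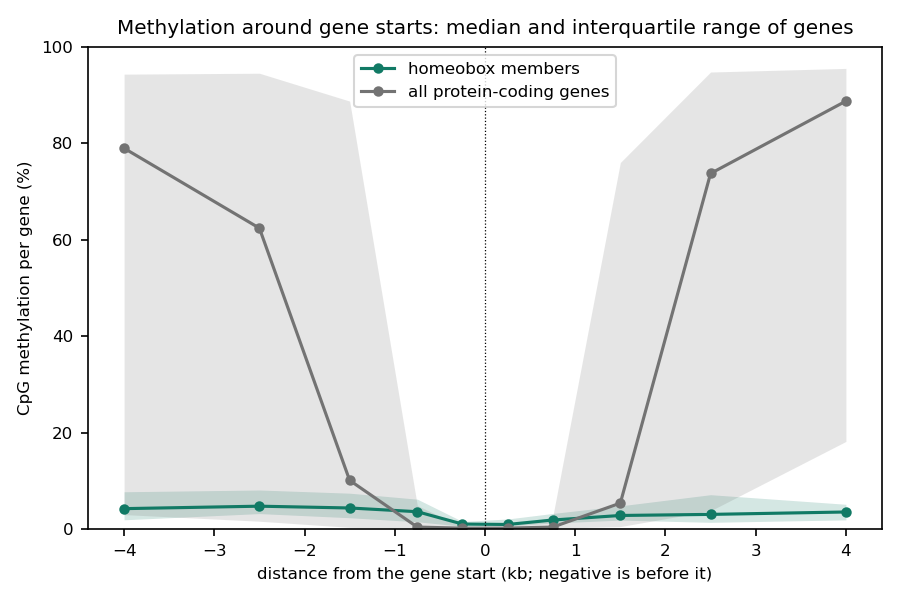
Median CpG methylation per gene (y axis, %) by distance from the RefSeq start (x axis, kb, negative before it) for the homeobox genes (green) and all protein-coding genes (grey), with shaded quartiles of genes. Only genes with a RefSeq start at hand, 41 of the members, could enter. Each band rests on those with enough covered CpGs in it, 13 to 35 members and 962 to 9353 of all genes. The set of genes thus changes from band to band. The members' median stays under 5% in every band of distance, while the median of all genes reaches 79.0% from 5 to 3 kb before and 88.8% from 3 to 5 kb after the start.

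The promoters of 5 members show where these CpGs lie. They span 250 bases before to 50 bases after the RefSeq start (GRCm38.p6, the mm10 build) and are printed 5′ to 3′ on the gene's own strand, with the CpGs covered in all 8 mice in capitals. Nkx6-1, which acts in pancreatic beta cells and motor neuron precursors, stands for a crowded promoter with little methylation. Gbx2 has a promoter of low methylation near a methylated part of the body, Irx2 and Irx4 are a low and a raised member of a family, and Lhx9, a gonad regulator, has few CpGs.
Nkx6-1 (chr5:101664662-101664961, minus strand): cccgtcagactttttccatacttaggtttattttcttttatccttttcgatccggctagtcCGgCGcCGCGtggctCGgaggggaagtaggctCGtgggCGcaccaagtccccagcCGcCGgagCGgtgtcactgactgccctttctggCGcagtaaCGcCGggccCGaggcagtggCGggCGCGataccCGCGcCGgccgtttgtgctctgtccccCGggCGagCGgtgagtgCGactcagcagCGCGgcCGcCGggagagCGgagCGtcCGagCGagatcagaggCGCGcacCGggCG
Gbx2 (chr1:89931127-89931426, minus strand): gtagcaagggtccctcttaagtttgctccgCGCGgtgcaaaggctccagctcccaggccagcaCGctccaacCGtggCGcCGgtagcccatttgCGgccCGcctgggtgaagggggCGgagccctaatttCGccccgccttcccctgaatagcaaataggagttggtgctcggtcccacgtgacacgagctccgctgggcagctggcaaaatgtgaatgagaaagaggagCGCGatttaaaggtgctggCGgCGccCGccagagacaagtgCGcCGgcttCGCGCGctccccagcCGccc
Irx2 (chr13:72628570-72628869, plus strand): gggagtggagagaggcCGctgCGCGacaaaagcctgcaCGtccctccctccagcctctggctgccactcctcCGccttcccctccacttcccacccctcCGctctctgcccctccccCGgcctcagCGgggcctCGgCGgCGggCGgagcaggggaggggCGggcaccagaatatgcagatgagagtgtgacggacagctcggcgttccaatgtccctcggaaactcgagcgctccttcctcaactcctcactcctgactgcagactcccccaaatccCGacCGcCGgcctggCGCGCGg
Irx4 (chr13:73260247-73260546, plus strand): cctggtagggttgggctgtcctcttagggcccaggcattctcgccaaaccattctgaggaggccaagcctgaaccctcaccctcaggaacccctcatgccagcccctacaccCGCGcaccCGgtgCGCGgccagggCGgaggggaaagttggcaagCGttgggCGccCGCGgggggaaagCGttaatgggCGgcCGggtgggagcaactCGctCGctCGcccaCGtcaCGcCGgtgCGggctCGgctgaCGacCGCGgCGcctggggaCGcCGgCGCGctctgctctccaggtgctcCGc
Lhx9 (chr1:138842395-138842694, minus strand): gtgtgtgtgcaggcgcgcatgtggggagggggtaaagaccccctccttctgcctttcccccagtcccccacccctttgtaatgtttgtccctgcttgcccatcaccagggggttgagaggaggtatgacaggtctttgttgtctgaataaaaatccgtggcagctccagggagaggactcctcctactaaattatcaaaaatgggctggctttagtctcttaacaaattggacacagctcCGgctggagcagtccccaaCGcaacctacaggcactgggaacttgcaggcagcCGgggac
All 36 covered CpGs of Nkx6-1 (of 40 in the sequence) were at or under 2.91%, with a mean of 0.369%. Gbx2 was at 0.222% over 21 of 27 CpGs, and Irx2 at 0.551% over 19 of 25. Irx4, which acts in the heart ventricle, was at 2.29% over 30 of 31, with a single CpG as high as 13.4%. Its level was 3.19, 2.32, 1.74 and 2.22% in the knockouts and 2.70, 2.06, 1.69 and 2.38% in the controls, so the groups overlapped. In Lhx9 only 3 of 6 CpGs were covered, at 0.815, 25.3, 22.0 and 7.504% in the knockouts and 7.46, 11.9, 4.01 and 4.00% in the controls, so that the spread among knockouts was wider than any difference. The members' promoters held a median of 18 CpGs against 14 in all 20084. The letters CCGG, the same on both strands and the cut site of the MspI enzyme on which reduced representation methods commonly rest, were found in 82.4% of the members' 51 promoters and 63.5% of all.

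Deletion of Atg12 was compared next, to ask whether the homeobox genes differed between the genotypes. No gene window passed. The reads of all CpGs of a gene were added up and compared by a quasi-binomial model with overdispersion moderated by limma, adjusted over 14888 genes. Of the 56 members 0 were called at an adjusted p under 0.05 (background 0%), and each had an adjusted p of 1. The mean over the 56 genes was 6.12, 6.11, 6.56 and 6.63% in the knockouts and 6.54, 5.88, 6.55 and 6.68% in the controls, a difference of -0.0595 percentage points that is smaller than the SD of either group (0.281 and 0.364). Means were lower in knockouts for 29 genes and higher for 27 (51.3% of all genes were lower), from -2.65 points (Pax8) to 1.26 points (Otx2).

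Unadjusted p-values under 0.05 were reached by 2 of the 56 (3.57%, background 2.97%), Msx1 and Dlx4. Msx1 was at 2.56, 2.18, 4.25 and 2.86% in the knockouts and 1.79, 1.89, 1.48 and 2.85% in the controls (unadjusted p = 0.0192), with control 37 inside the knockout range. Dlx4, a distal-less gene, was at 5.07, 5.87, 5.21 and 5.11% in the knockouts and 7.12, 6.76, 6.30 and 8.61% in the controls, a mean of 5.31% ± 0.372 against 7.20% ± 0.999 (SD, n = 4). Its groups did not overlap (unadjusted p = 0.0386). Groups also did not overlap for Irx2, at 1.95% ± 0.294 against 1.43% ± 0.0776, and Otx2, a forebrain regulator, at 5.66% ± 0.335 against 4.40% ± 0.700. With 2 kb instead of 5 kb on each side, the difference by summed reads went from -1.04 to -0.375 points for Dlx4 (unadjusted p = 0.199) and from 0.940 to 0.323 points for Msx1 (unadjusted p = 0.306). In all, 3 of 56 gene windows were without overlap (5.36%, background 2.75%).

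**Figure D4:**
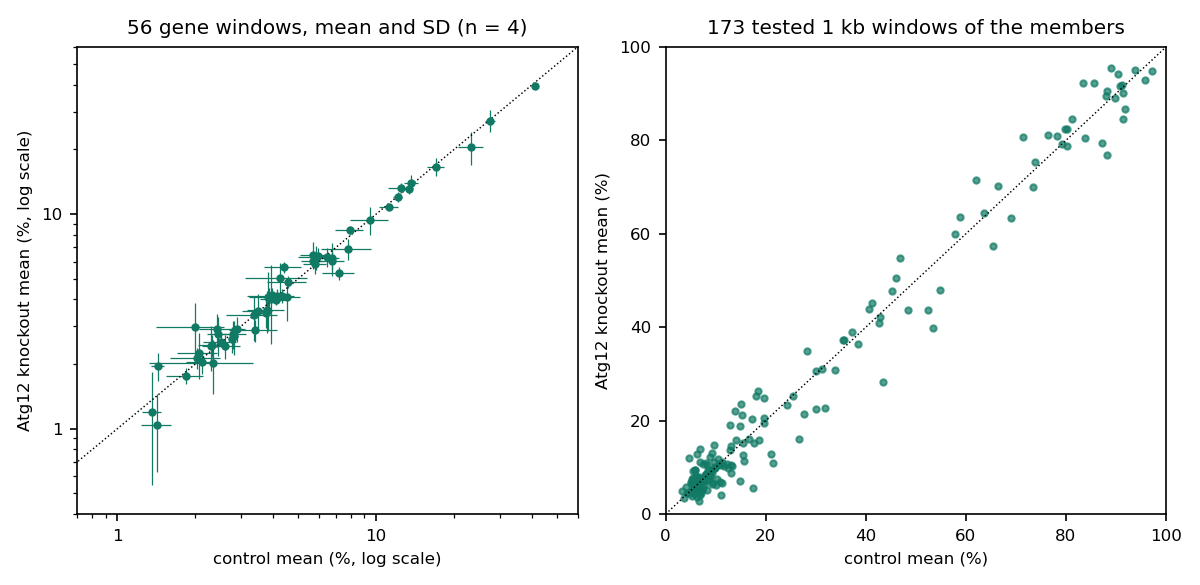
Left, Atg12 knockout mean (y axis) against control mean (x axis) of the 56 gene windows on logarithmic axes, in %, with SD bars (n = 4). Right, the same means for the 173 tested 1 kb windows of the members on linear axes; points lie along the dotted line of equality, with single windows up to 15.1 points below it.

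The other genes of smallest p on the lower side were Lhx4, Dlx2, Pax3, Lhx2, Pitx1, Dlx1 and Six2, and on the higher side Nkx2-1, Pax9, Irx2, Pax6, Nkx2-3, Nkx2-2 and Irx1, with unadjusted p from 0.0614 (Lhx4) to 0.303 (Six2). Except for Irx2, all of them overlapped between the groups. The side is that of the mean over CpGs. For Dlx2, Six2, Nkx2-3 and Nkx2-2 the summed reads that the test used gave the opposite sign, as with Nkx2-2 at 0.361 points higher by the mean over CpGs and -0.909 points by reads. In families picked after their values were seen, all 6 distal-less genes had lower means in knockouts (average -0.517 points) and all 6 NK homeobox genes higher means (0.217). With reads summed, 4 of 6 distal-less genes were lower and the NK homeobox genes were split 3 and 3, with averages of -0.242 and -0.119 points. Without knockout 45 the means over CpGs were lower for 4 of 6 distal-less genes and split 3 and 3 for the NK homeobox genes, and without control 34 the average of the latter was 0.0921 points.

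Within genes, 1 kb windows were compared where the mean level was 5 to 95%, which left 173 of the members' 477. Of these, 0 were called (background 0%), with adjusted p of 0.630 or more in the limma-moderated test. Unadjusted p under 0.05 was reached by 9 windows, 7 of them lower in knockouts (5.20%, background 6.5%; 4.4% for lower and 2.1% for higher alone), and 2 had groups that did not overlap (1.16%, background 3.31%). The members' windows thus passed no more often than all tested windows of the autosomes. Differences stayed within 10 points for 167 of 173.

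The 8 leading windows on the lower side lay in or near Lhx2 (at 38366001 and 38357001), Dlx4, Dlx1, Pitx1, Irx4 (at 73257001 and 73269001) and Cdx2. In Lhx2, a regulator of forebrain and eye, the window at 38366001 to 38367000 on chromosome 2 was at 84.6, 76.9, 76.3 and 69.8% in the knockouts and 86.3, 91.0, 90.9 and 84.4% in the controls (unadjusted p = 0.00335, adjusted p = 0.630). It held only 3 CpGs, and knockout 25 lay just above control 37. The window 3707 bp outside Dlx4, at 95150001 to 95151000 on chromosome 11, had 32 CpGs. It was at 5.33, 8.24, 5.64 and 5.29% in the knockouts and 9.20, 8.58, 7.24 and 15.2% in the controls, with knockout 28 inside the control range (unadjusted p = 0.00405). Near Pitx1, which specifies the hind limb, the window at 55840001 on chromosome 13 was at 23.7% in control 34, under all knockouts, while the other controls were at 59.1 to 71.0% and the knockouts at 27.8 to 53.7%.

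The 8 on the higher side lay in or near Pax7 (at 139818001 and 139757001), Pax9, Emx2, Nkx2-5, Otx2, Gsx2 and Msx1. Pax7, a regulator of muscle stem cells, was at 23.1, 26.6, 27.5 and 28.4% in the knockouts and 19.7, 14.1, 15.6 and 24.1% in the controls at 139818001 to 139819000 on chromosome 4 (unadjusted p = 0.0145, adjusted p = 0.677). Control 37 lay above knockout 25. All 16 of these windows overlapped between the groups. The 2 tested windows that did not overlap were both in Lhx4 and went in opposite directions, at 12.8% ± 2.08 against 21.1% ± 4.38 at 155747001 and at 95.4% ± 2.85 against 89.0% ± 3.30 at 155717001 on chromosome 1.

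**Figure D5:**
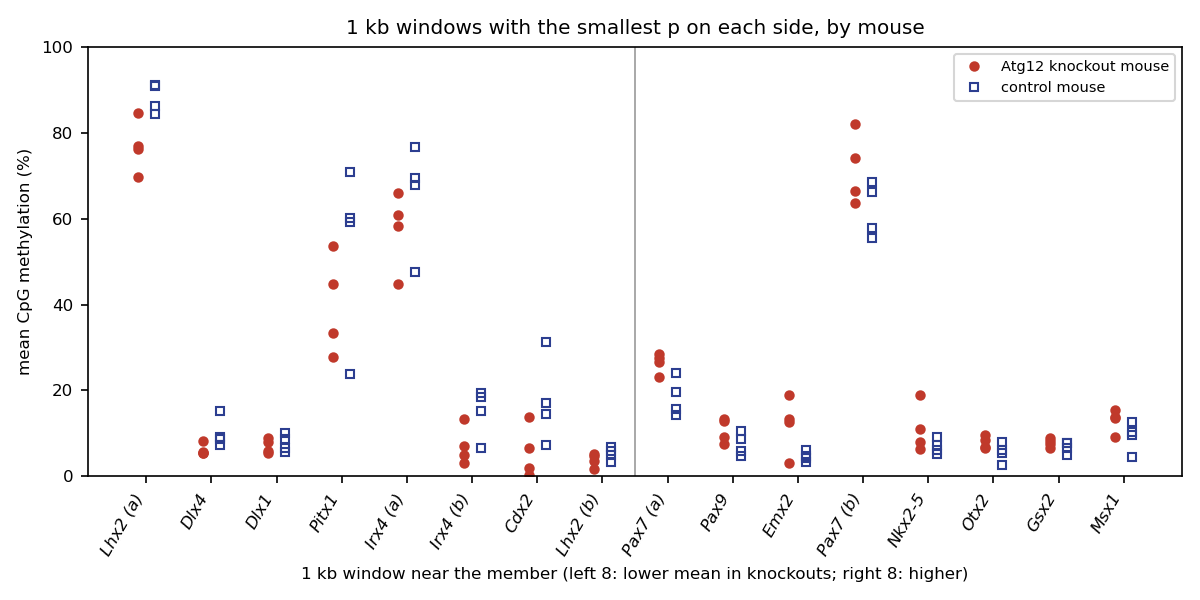
Mean CpG methylation (y axis, %) of the 16 leading 1 kb windows near the named homeobox genes (x axis), 1 point per Atg12 knockout (filled circle) or control (open square) mouse. In each window at least 1 mouse of a group lies within the range of the other group.

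Single CpGs were tested where the level was 5 to 95%, 1880 of the members' 9692. None was called, against 23 of 313039 over the genome (0.00735%), and the smallest adjusted p of a member CpG was 0.330. Unadjusted p under 0.05 was reached by 95 (5.05%, background 6.52%), 52 of them lower (background 4.13%) and 43 higher in knockouts (background 2.38%), and 53 did not overlap between groups (2.82%, background 3.11%). The CpG of smallest p lay beside Dlx4 at 95150096, inside the 1 kb window described above. It was at 0% in all 4 knockouts, which allows up to 1.17% in the least covered of them, and at 7.95, 14.0, 10.5 and 11.6% in the controls, with 257 to 635 reads (unadjusted p = 9.23e-05). At Pitx1 55840464, control 34 and knockout 25 were both at 0%, while the other controls were at 48.4 to 68.1% and the other knockouts at 16.3 to 22.7%. The other CpGs of smallest p on the lower side were Pax7 139814076, Pitx1 55840423 and Lhx4 155747089, and on the higher side Gbx2 89928898, Msx1 37817820, Nkx2-2 147185521, Lhx4 155717526 and Tlx2 83070238. Pax7 139814076 and both Lhx4 CpGs did not overlap between groups.

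Near the starts, 2 of 48 windows did not overlap between the groups (background 2.57%), both higher in the knockouts (background 1.09% in that direction). Irx2 was at 0.994, 1.41, 0.948 and 1.46% in the knockouts and 0.698, 0.489, 0.814 and 0.486% in the controls, over 109 CpGs. Tlx3, which specifies sensory neurons, was at 3.92, 4.46, 4.98 and 3.98% against 3.40, 3.73, 3.67 and 3.34%, over 92 CpGs. These differences are under 1 percentage point, and no test was fitted to the start windows.

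Leaving out control 34 raised the number of member gene windows at an unadjusted p under 0.05 from 2 to 10 (17.9%), of which 9 were lower in knockouts. With all 8 mice, the gene windows of all genes at that limit were already mostly lower in knockouts (397 lower, 45 higher). Without control 34 the background over all genes rose to 24%, so that the members' share was not above it. None of the 56 was called without that mouse, with adjusted p of 0.0820 or more, and without control 34 and knockout 25 together 6 were at an unadjusted p under 0.05 (10.7%, background 18.2%). Of the members' 1 kb windows, 14 of 176 were at an unadjusted p under 0.05 without control 34 (7.96%, background 8.31%) and 17 of 171 without both mice (9.94%, background 8.29%), and none was called.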

How the data were processed

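ERRBS libraries of sorted HSCs from 4 Atg12 knockout and 4 control mice were used, each from a separate mouse. The coverage values are counts of reads per cytosine deposited by the authors, with no cytosine under 10 reads, and 2 further columns hold, per the file headers, the percent of reads with C (methylated) and with T. The labels' protocol gives a size selection changed for low DNA input. CASAVA 1.8.2, Bismark and mm10 are named in the submitters' processing notes. For filters, trimming and duplicate handling, nothing is given in the sources used here.

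Reads were recovered as coverage times percentage, rounded, and the strands of a CpG were added. Gene windows were RefSeq genes (GRCm38.p6) with 5 kb on each side and at least 10 CpGs with 10 or more reads in all mice. The 1 kb windows needed 3 such CpGs and a mean level of 5 to 95%, and single CpGs used the rule stated in the report. Each was fitted by a quasi-binomial model of genotype, with overdispersion moderated by squeezeVar of limma 3.58.1 (R 4.3.3) and held at or above 1, and Benjamini-Hochberg adjustment over all features at 0.05. The fit was tested on reads simulated at features with levels of 5 to 95%. Levels under 5%, at which many member gene windows lay, were not simulated. Nor were changes as small as those of the member gene windows. Alternatives were edgeR 4.0.16 and limma on log2 ratios of reads, other coverage, flank and level limits, and mice left out. Exact 0 and low levels rest on reads without molecular identifiers, so limits set by coverage hold for counting error only. p-values measure the spread between these mice.

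Members and lists were chosen with earlier results of these data known. Named genes were the 10 highest and 10 lowest by level, the 8 of smallest p on each side for gene and 1 kb windows and 5 for CpGs, the 8 with the largest share of methylated dense CpGs, the 8 longest and 5 shortest runs, and the 5 largest SDs within a group. Others, such as the families and the genes with a raised sparse level, were named after their values were seen.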

Additional observations from a re-analysis of the deposited data

Results flagged for a closer look

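In 146 groups of 4 mice looked at, over the members' gene windows, their mean and the named 1 kb windows, 4 had a single mouse far from the other 3, where about 1 in 20 is flagged by chance. Control 34 was the distant mouse in 3 of them. It was at 10.5% in the gene window of Pax7, with the other controls at 12.98 to 13.46%, at 2.94% in that of Nkx2-3 (others 4.06 to 4.12%), and at 6.48% in that of Gbx1 (others 8.29 to 8.48%). The fourth was the 1 kb window beside Dlx4, where knockout 28 was at 8.24% and the other knockouts at 5.29 to 5.64%. Control 34 also had the lowest coverage of methylated against unmethylated CpGs, 0.260, and the part of this in its low levels was not tested.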

How the results depend on the processing

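No member gene window, 1 kb window or CpG was called under any alternative run (smallest adjusted p 0.0820, 0.171 and 0.0814). The mean member level differed by -0.242 (reads summed) to 0.0304 points, within the spread between mice. Member gene windows at an unadjusted p under 0.05 (2) became 0 with limma, 0 at levels of 5 to 95% only, 0 with 2 kb flanks, 1 with edgeR and 6 without knockout 25 and control 34, and 0 to 10 with 1 mouse left out (10 without control 34). Over all genes 442 became 200 at those levels, 2706 without both mice, and 162 to 3577 with 1 left out. Member 1 kb windows (9, 5.20%, background 6.5%) became 5 with limma and 38 with no level filter. They became 17 without both mice (9.94%, background 8.29%) and 6 to 14 with 1 left out. The 14, without control 34, were 7.96% (background 8.31%). Over all 1 kb windows 2593 became 1511 with edgeR and 5744 with no level filter, and the 0 called became 5 without both mice and 0 to 29 with 1 left out. With no level filter, windows outside 5 to 95% were tested too, so 38 and 5744 rest on more windows than 9 and 2593. The 23 CpGs called over the genome became 40 at 20 reads, 1 with the highest coverage left out, 0 with limma, 3 without both mice, and 0 to 156 with 1 left out (156 without knockout 45). The members' 95 CpGs (5.05%, background 6.52%) became 62 to 131 (62 without control 1), and the number of CpGs tested changed between runs. With 2 kb flanks 2 directions by reads turned: Pitx1, -0.710 points, was at 0.0280, and Nkx2-3, -0.393 points, at 0.105. The causes were not tested. No paired analysis was possible because the groups share no mouse numbers. Of the members' 477 1 kb windows, 304 lay outside the tested levels.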
